A study of Danio rerio with 18 samples.

Results

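Poly(A) RNA of whole zebrafish embryos injected with a her3 morpholino was compared with that of uninjected embryos of the same strain at 24 hours post fertilisation (hpf). The comparison used 6 of the 18 libraries of the study, 3 labelled her3-MO and 3 labelled WIK, and every gene with at least 1 CPM (a read count divided by library size, on a common scale) in at least 3 of the 18 libraries, which was 20738 of the 25535 genes in the deposited table. A morpholino is a synthetic antisense oligomer that binds a transcript and blocks its splicing or translation without cutting it.

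The her3-MO embryos were of the WIK wild-type strain and received the her3 morpholino at the 1- to 4-cell stage. A further set of 3 libraries, labelled mm-MO, came from WIK embryos given a mismatch morpholino at the same stage, and is set beside the comparison where it bears on a result. The WIK embryos carried no mutation and no injection is recorded for them, so her3-MO and WIK differ in the injection as well as in the oligomer. Each library was made from a pool of 20 to 25 embryos whose chorions had been removed at 24 hpf, so a value is a pool average. The remaining libraries of the study, of a her3 knockout line and of WIK at 72 hpf, entered the fit only through the shared estimate of the spread. The labels call the replicates separate samples, so the p-values speak of variation among pools, part of which may be technical. That variation was estimated over all groups of the study, not in her3-MO and WIK alone.

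her3 encodes a basic helix-loop-helix repressor of the Hairy and Enhancer-of-split (Hes) family. In the zebrafish neural plate it is known to hold back neurogenesis between the proneural clusters, where it represses neurog1, and it is itself repressed by Notch activity, unlike most of its family, which Notch switches on. The her4 genes are the family's usual readout of Notch in neural progenitors. Induction of DNA damage response and cell death genes is a known side effect of some morpholinos in zebrafish.

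Depth, as reads recovered from the CPM values, ran between 14214136 and 22709482 in the 6 libraries and was least in WIK replicate 1. Of 34 marker genes of embryonic tissues found in the table, 32 had at least 1 CPM in all 6 libraries, among them the muscle actin gene actc1b, the keratin krt4, the globin hbae3 and the neural factor SOX3. The remaining 2 were TTR and fabp10a, liver genes with less than 1 CPM in every library, and fabp10a was listed at 0 in at least 1 of them. WIK replicate 1 stood apart from the other WIK libraries: the chi-square per degree of freedom over gene counts was 30.16 and 34.63 for its pairs and 4.511 for the pair of replicates 2 and 3. her3-MO replicate 1 stood apart in the same way, at 19.77 and 31.29 against 5.534. In the mm-MO group it was replicate 3, at 30.48 and 21.59 against 4.849. The first principal component of the 12 libraries of 24 hpf, with 34.36% of the variance, placed WIK replicate 1 at -82.82, with every other library between -21.34 and 24.22. Beside each gene list's counts stand those without WIK replicate 1, without both WIK replicate 1 and her3-MO replicate 1 (the 2 libraries that stood apart in the compared groups, a choice made after the data were seen), and without any other single library that moved a count of at least 3 genes by over 1.5 times. Counts of mm-MO are also given without its replicate 3.

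**Figure D1:**
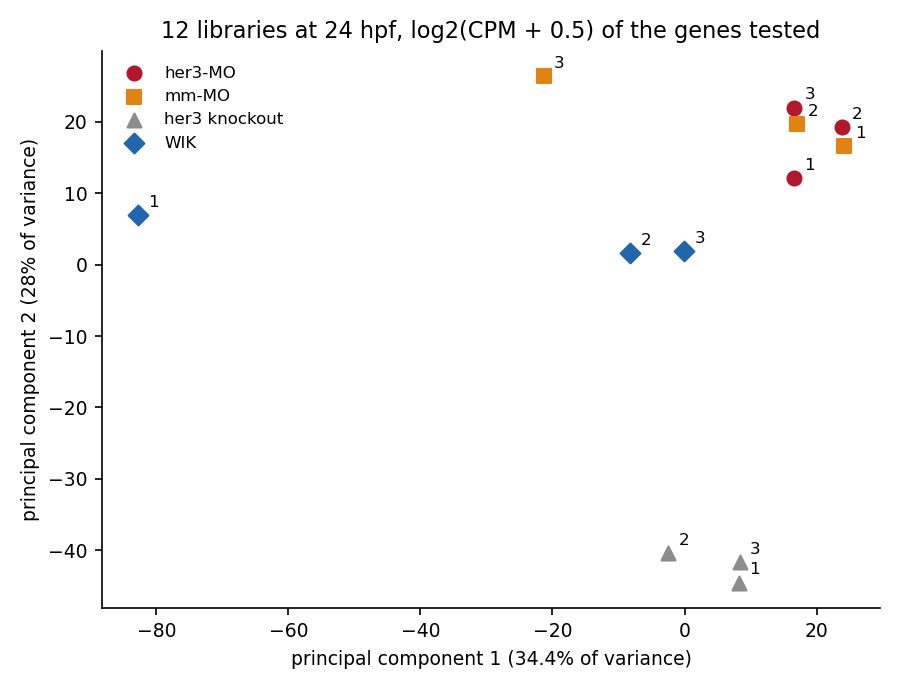
Principal components 1 and 2 of log2(CPM + 0.5) in the 12 libraries of 24 hpf, 3 each of her3-MO, mm-MO, the her3 knockout and WIK, with the replicate number beside each point. The her3-MO and mm-MO libraries lie at the upper right together, except mm-MO replicate 3, and WIK replicate 1 lies alone at the left, at -82.82 on the first component.

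The transcript of her3 itself was higher, not lower, in the embryos given its morpholino. her3 (ENSDARG00000076857, listed as HES3 in the table of symbols) stood at 41.8, 33.7 and 32.3 CPM in the her3-MO libraries, 7.87, 7.66 and 8.09 CPM in mm-MO and 11.04, 9.24 and 9.82 CPM in WIK. All 3 her3-MO libraries lay above every library of the other groups, by a wide margin. The log2 difference from WIK, computed on log2(CPM + 0.5), was 1.79 ± 0.12 (SE, adjusted p = 4.3e-07), and that from mm-MO was 2.11 ± 0.12 (SE, adjusted p = 5.9e-08). mm-MO embryos did not pass the test against WIK, at -0.33 (adjusted p = 0.09). The RNA level of the targeted gene does not report whether a morpholino blocked its translation. neurog1, the proneural gene that her3 represses, was measured at 45.8, 34.9 and 32.9 CPM in the her3-MO libraries, 41.9, 41.3 and 44.0 CPM in mm-MO and 55.6, 36.8 and 42.0 CPM in WIK. her3-MO and WIK overlapped, and their log2 difference of -0.23 ± 0.15 (SE, adjusted p = 0.28) did not pass the test, with -0.07 when WIK replicate 1 was left out and -0.38 when her3-MO replicate 1 was left out. The difference of her3-MO from mm-MO, -0.17 ± 0.15 (SE, adjusted p = 0.65), did not pass either, nor did that of mm-MO from WIK, at -0.06 (adjusted p = 0.83).

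Of the 20738 genes tested, 2997 were called (adjusted p under 0.05), which is 14.5% of them. In her3-MO 1391 genes were higher than in WIK, 6.71% of those tested, and 1606 were lower, 7.74%. At least a 2-fold difference was found for 335 of them, 1.62% of the genes tested. The median log2 difference was 0.65 over the genes called higher and -0.54 over those called lower, so most calls were of less than 2-fold. The 3 values of one group lay entirely above the 3 of the other for 6335 genes, 30.5% of those tested. Among the 2997 called genes this held for 2820, so a lack of overlap in a called gene adds little to its call. In these pooled whole embryos, fewer cells of a type and less RNA per cell cannot be told apart. The mm-MO libraries, set against the same WIK libraries, gave 2171 calls, or 10.5%: 1034 higher (4.99%) and 1137 lower (5.48%), with 340 of at least 2-fold (1.64%). her3-MO differed from mm-MO in 694 genes, or 3.35%: 301 higher (1.45%) and 393 lower (1.9%), with 168 of at least 2-fold (0.81%).

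How many genes were called depended on single libraries. Without WIK replicate 1 there were 1291 calls (6.23% of the genes tested), 618 higher and 673 lower. Without her3-MO replicate 2 there were 1022, without her3-MO replicate 3 there were 1343, and without WIK replicate 3 there were 5254. The shares of all genes tested that were called higher and lower were 2.98% and 3.25% without WIK replicate 1, 8.64% and 7.99% without WIK replicate 2, and 13.8% and 11.5% without WIK replicate 3. They were 6.54% and 8.02% without her3-MO replicate 1, 2.12% and 2.81% without her3-MO replicate 2, and 2.62% and 3.86% without her3-MO replicate 3. Without both libraries that stood apart the shares were 4.77% and 5.93%. In all 6 fits that each left out 1 library, 843 genes were called, 363 higher and 480 lower. Those 6 fits still took the spread from all groups of the study. With only the 4 groups of 24 hpf fitted, 1039 genes were called, and with only the 2 compared groups 70. Scaling each library to its plain total moved the median of all genes to 0.17, against 0.01 with the deposited scaling, and the calls then split into 3099 higher (14.9%) and 759 lower (3.65%). A list's count in one of these fits is to be read against the share of all genes in the same fit. All directions are given with the deposited scaling. Without mm-MO replicate 3 the comparison of mm-MO with WIK had 5.8% of the genes higher and 7.45% lower, and that of her3-MO with mm-MO 1.36% and 1.1%. The count between her3-MO and mm-MO moved too, to 327 without her3-MO replicate 2, 422 without her3-MO replicate 3 and 1248 without WIK replicate 1, which enters that comparison only through the spread.

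**Figure D2:**
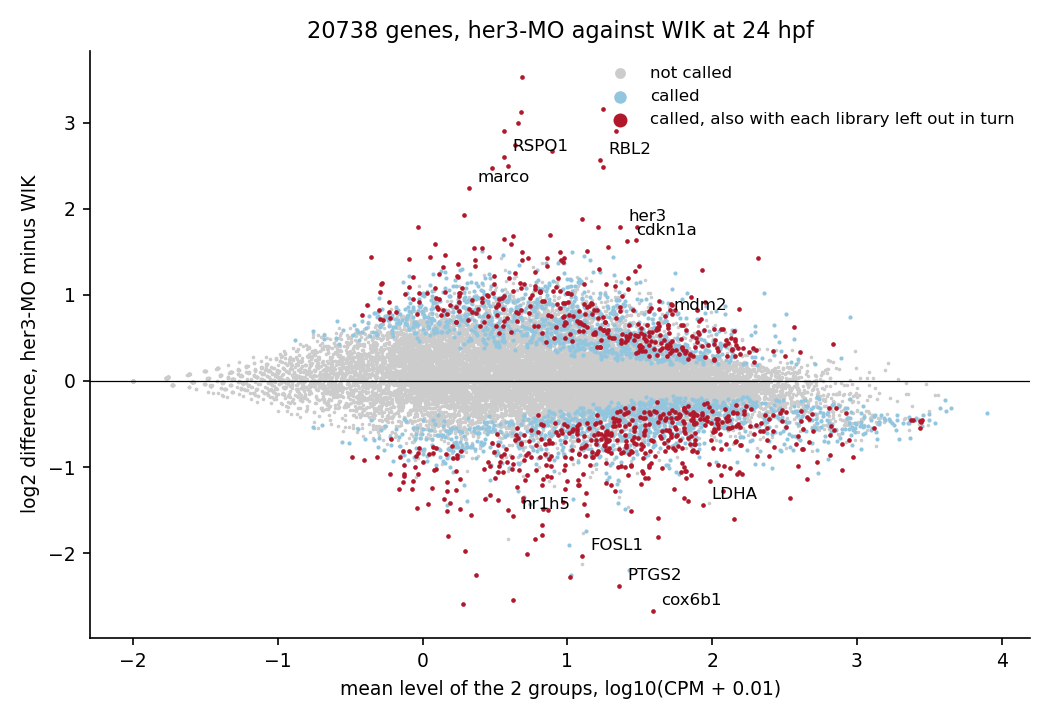
Log2 difference between her3-MO and WIK (vertical) against the mean level of both groups, log10(CPM + 0.01) (horizontal), for the 20738 genes tested, 1 point a gene. Red points are the 843 genes also called when each of the 6 libraries was left out in turn, blue points are the other called genes and grey points were not called. her3 lies at 1.79 and cox6b1, the lowest named gene, at -2.67.

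The largest rises, among genes with a name, were in a mixed set of signalling, ciliary and stress genes. By size, RSPO1 (ENSDARG00000104340), a secreted enhancer of Wnt signalling, came first with 5.26, 7.06 and 7.50 CPM in the her3-MO libraries, 7.87, 8.54 and 8.56 CPM in mm-MO and 0.849, 0.370 and 0.819 CPM in WIK. RBL2 (ENSDARG00000045636), a pocket protein of the retinoblastoma family, had 26.9, 32.5 and 28.2 CPM in the her3-MO libraries, 42.5, 43.1 and 31.6 CPM in mm-MO and 4.5, 4.17 and 4.81 CPM in WIK. LNX1 (ENSDARG00000043323), a ubiquitin ligase that binds Numb, had 31.6, 29.7 and 29.0 CPM in the her3-MO libraries, 30.1, 46.9 and 31.4 CPM in mm-MO and 3.23, 6.71 and 5.53 CPM in WIK. The her3-MO and mm-MO values overlapped for RBL2 and LNX1, the mm-MO values of RSPO1 were slightly the higher ones, and all injected libraries lay far above WIK. Their log2 differences between her3-MO and WIK were 2.60 ± 0.18 (SE, adjusted p = 4.3e-07) for RSPO1, 2.57 ± 0.16 (SE, adjusted p = 1.9e-07) for RBL2 and 2.49 ± 0.20 (SE, adjusted p = 1.9e-06) for LNX1. Further rises, with mm-MO also above WIK in every library, were found for ASIC1 (ENSDARG00000008329), an acid-sensing sodium channel, at 2.48 ± 0.28, for DNAH7 (ENSDARG00000060165), a dynein of cilia, at 1.89 ± 0.24, for bmb (ENSDARG00000096603), brambleberry, a nuclear membrane fusion factor of the early embryo, at 1.78 ± 0.21, and for MAP3K20 (ENSDARG00000006978), a stress kinase, at 1.69 ± 0.22. None of these 7 genes passed the test between her3-MO and mm-MO.

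PHLDA3, described with the DNA damage genes, was another of the 12 largest rises. Besides her3, the other 3 were larger in her3-MO than in mm-MO. marco (ENSDARG00000059294), a scavenger receptor of macrophages, had 3.09, 4.43 and 3.79 CPM in the her3-MO libraries, 0.856, 0.916 and 1.08 CPM in mm-MO and 0.509, 0.211 and 0.512 CPM in WIK. cfap221 (ENSDARG00000087107), a ciliary protein, had 10.4, 12.7 and 12.3 CPM in the her3-MO libraries, 2.98, 5.91 and 4.07 CPM in mm-MO and 3.99, 2.48 and 3.53 CPM in WIK. The 3 her3-MO values lay above all 6 others for both genes. marco differed from WIK by 2.24 ± 0.18 (SE, adjusted p = 1.9e-06) and from mm-MO by 1.55 ± 0.18 (SE, adjusted p = 8.7e-05). For cfap221 the differences were 1.70 ± 0.21 (SE, adjusted p = 0.00015) from WIK and 1.39 ± 0.21 (SE, adjusted p = 0.0011) from mm-MO, and mm-MO did not pass the test against WIK, at 0.31 (adjusted p = 0.37). snord118a (ENSDARG00000082850), the small nucleolar RNA U8, differed from WIK by 1.93 ± 0.27 (SE, adjusted p = 0.00042) and from mm-MO by 1.04 ± 0.27 (SE, adjusted p = 0.045). It was measured after poly(A) selection, which small nucleolar RNAs mostly escape.

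The largest fall was in a subunit of cytochrome c oxidase. cox6b1 (ENSDARG00000045230) had 12.0, 9.48 and 8.91 CPM in the her3-MO libraries, 19.1, 23.1 and 23.6 CPM in mm-MO and 85.3, 62.0 and 56.5 CPM in WIK. her3-MO was lowest, mm-MO intermediate and WIK highest, with no overlap between any 2 groups. The log2 difference from WIK was -2.67 ± 0.14 (SE, adjusted p = 6.9e-08) and that from mm-MO was -1.08 ± 0.14 (SE, adjusted p = 0.00037). cox4i1l (ENSDARG00000012388), another gene named for a subunit of that enzyme, had 0.424, 0.574 and 0.397 CPM in the her3-MO libraries, 0.979, 0.791 and 1.03 CPM in mm-MO and 4.84, 2.54 and 2.87 CPM in WIK. It differed from WIK by -1.98 ± 0.21 (SE, adjusted p = 4.3e-05) and did not pass the test against mm-MO.

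ALPP (ENSDARG00000053774), an alkaline phosphatase, had 0.339, 0.903 and 1.59 CPM in the her3-MO libraries, 2.32, 2.25 and 4.69 CPM in mm-MO and 7.13, 7.92 and 7.16 CPM in WIK. malb (ENSDARG00000030094), of the MAL family of membrane proteolipids, had 1.86, 2.67 and 2.34 CPM in the her3-MO libraries, 4.65, 6.75 and 9.12 CPM in mm-MO and 11.2, 10.4 and 7.16 CPM in WIK. nr1h5 (ENSDARG00000031046), a nuclear receptor related to the bile acid receptor, had 1.44, 2.298 and 1.94 CPM in the her3-MO libraries, 3.18, 3.87 and 4.07 CPM in mm-MO and 6.88, 5.86 and 6.80 CPM in WIK. All 3 were below both other groups in every her3-MO library. From WIK they differed by -2.55 ± 0.30 (SE, adjusted p = 9.4e-05), -1.84 ± 0.20 (SE, adjusted p = 5.9e-05) and -1.56 ± 0.18 (SE, adjusted p = 8.4e-05) in that order, and from mm-MO by -1.35 ± 0.30 (SE, adjusted p = 0.02), -1.36 ± 0.20 (SE, adjusted p = 0.00093) and -0.82 ± 0.18 (SE, adjusted p = 0.017). itih3b.1 (ENSDARG00000102722), an inter-alpha-trypsin inhibitor heavy chain, fell by 1.79 on the log2 scale, map1lc3cl (ENSDARG00000075727), an LC3 protein of autophagy, by 1.67, and rltgr (ENSDARG00000096533) by 1.81, and these 3 did not pass the test against mm-MO.

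Of the 24 genes with the largest differences, 12 in each direction and her3 among them, 21 were also called between mm-MO and WIK, a comparison that uses the same WIK libraries, and 8 were called between her3-MO and mm-MO. Over all genes tested the shares called were 10.5% and 3.35%. The 24 were picked by their her3-MO and WIK values. The WIK values enter the first comparison, the her3-MO values the second, and both enter the fits that left out 1 library. In all 6 fits that left out 1 library, 23 of the 24 were called. The exception was MMP9, described with the inflammatory genes. They came from 314 genes that met the size rule, of which 89 had only a clone name or none. The log2 differences of those 89 ran as high as 3.53 and as low as -2.59.

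**Figure D3:**
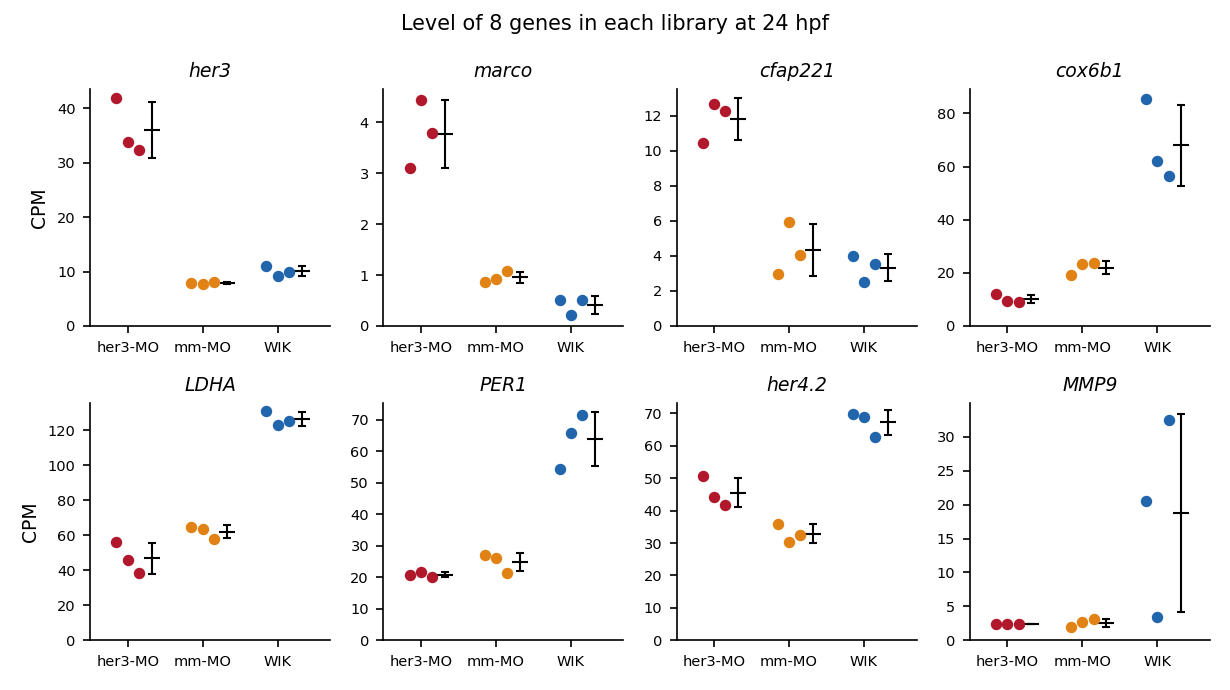
CPM of 8 genes in each library at 24 hpf, with her3-MO at the left, mm-MO in the middle and WIK at the right of each panel; points are single libraries in the order of their replicate numbers, and the black bar is the mean ± SD (n = 3). her3, marco and cfap221 are highest in her3-MO, cox6b1, LDHA and PER1 are lower in both injected groups than in WIK, her4.2 is lowest in mm-MO, and MMP9 varies widely among the WIK libraries.

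Groups of genes were described with 34 lists that held 2299 of the genes tested. Some genes stand in several lists, so the lists' counts are not independent of one another. A list's counts are read against the shares of all genes tested that were called higher (6.71%) or lower (7.74%). For each list, up to 2 members in each direction were named by size, and other members were named after their values were seen. The symbols come from a table that writes many zebrafish genes in the capitals of their human counterparts, and 3433 genes share a symbol with another, so an identifier is given where it is needed. Identifiers are also printed for some unshared symbols. Where a symbol is shared, the values of the other genes under it are mostly not reported here.

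**Figure D4:**
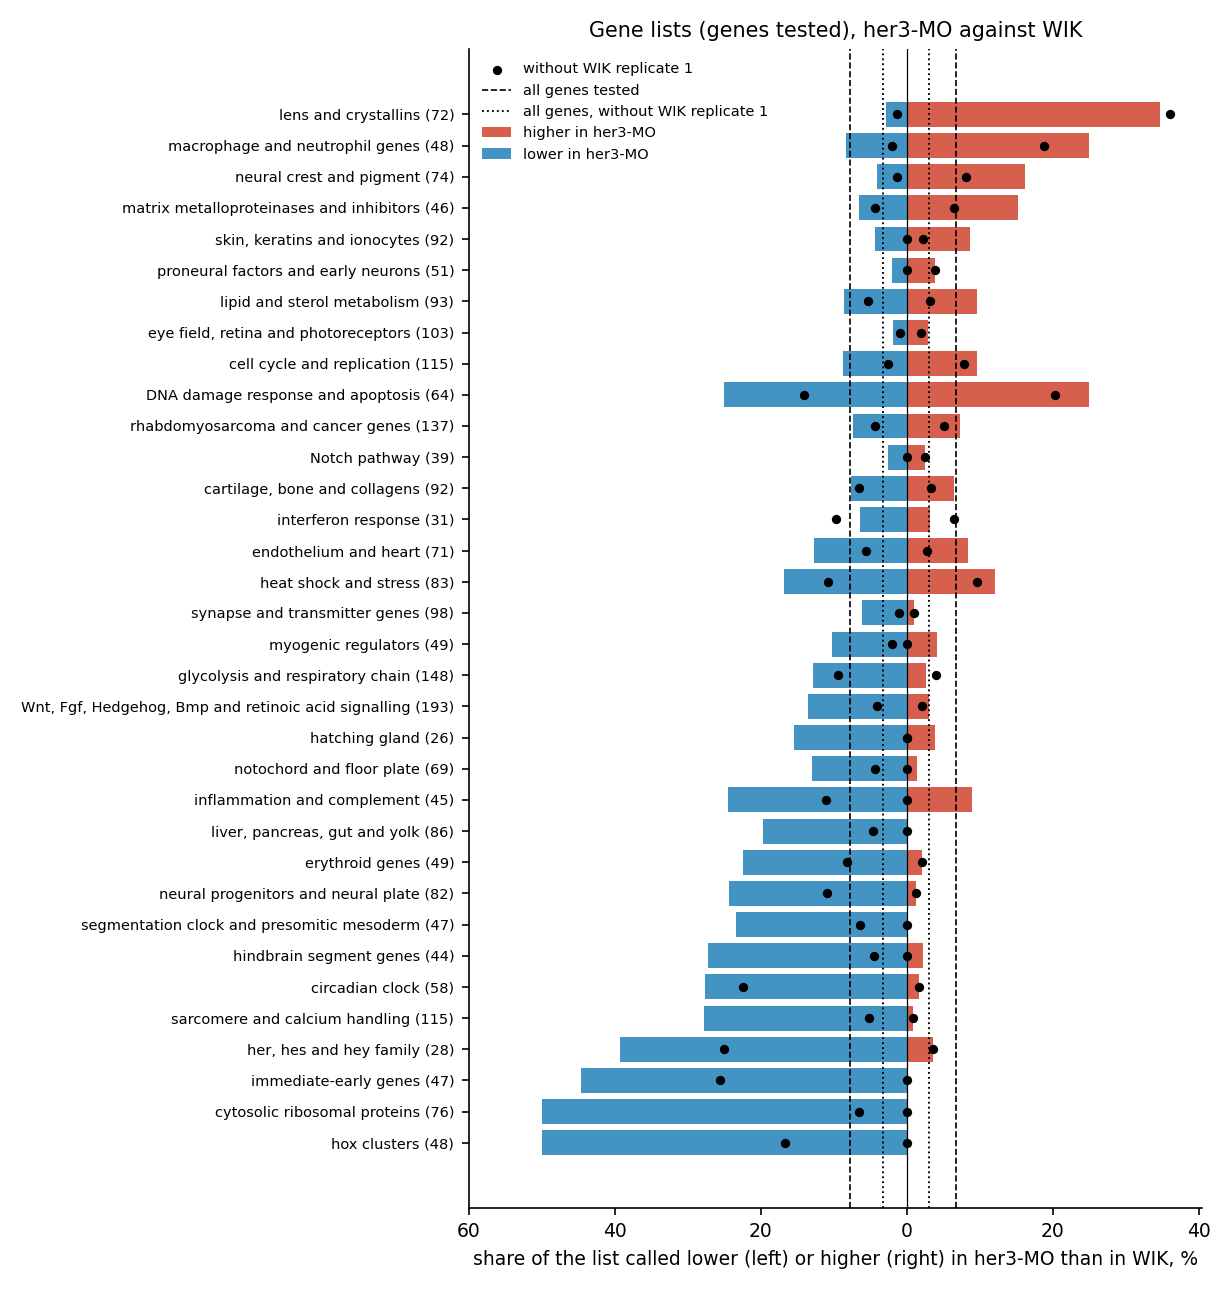
Share of each list's tested genes (number in brackets) that was called lower (blue, to the left) or higher (red, to the right) in her3-MO than in WIK, in percent; black dots give the same shares without WIK replicate 1. Dashed lines give the shares over all 20738 genes, and dotted lines those shares without WIK replicate 1. The hox, ribosomal protein, immediate-early and her families extend farthest to the left and lens genes farthest to the right. Many dots lie closer to 0 than the ends of their bars, as the dotted lines do against the dashed ones.

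The genes of the DNA damage response and apoptosis were called more often than any other list here apart from the hox and ribosomal protein lists, whose share was equal. Of 64 genes tested, 16 were higher and 16 lower in her3-MO, or 50% called, and the list's median was -0.06. cdkn1a (ENSDARG00000076554), the p21 inhibitor of the cell cycle, had 33.1, 43.1 and 42.1 CPM in the her3-MO libraries, 41.8, 46.3 and 43.7 CPM in mm-MO and 10.1, 12.8 and 14.6 CPM in WIK. mdm2 (ENSDARG00000033443), a ubiquitin ligase induced by DNA damage, had 55.5, 63.4 and 58.0 CPM in the her3-MO libraries, 85.6, 90.9 and 82.5 CPM in mm-MO and 41.6, 30.0 and 33.8 CPM in WIK. In both genes every injected library lay above every WIK library. The log2 differences between her3-MO and WIK were 1.62 ± 0.13 (SE, adjusted p = 2.8e-06) for cdkn1a and 0.75 ± 0.11 (SE, adjusted p = 0.00081) for mdm2.

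Several apoptotic genes moved the same way. PHLDA3 (ENSDARG00000037804), an inhibitor of Akt, had 39.8, 49.4 and 52.7 CPM in the her3-MO libraries, 62.3, 65.5 and 76.0 CPM in mm-MO and 16.4, 11.1 and 12.8 CPM in WIK, a log2 difference from WIK of 1.79 ± 0.14 (SE, adjusted p = 1.9e-06). casp8 (ENSDARG00000058325), listed under the name of the initiator caspase, had 39.6, 48.7 and 48.2 CPM in the her3-MO libraries, 59, 63.3 and 75.4 CPM in mm-MO and 17.6, 12.4 and 13.3 CPM in WIK, a log2 difference of 1.63 ± 0.15 (SE, adjusted p = 1.5e-05). bbc3 (ENSDARG00000069282), the BH3-only protein Puma, had 11.2, 13.9 and 14.7 CPM in the her3-MO libraries, 14.6, 17.0 and 14.8 CPM in mm-MO and 6.198, 3.75 and 4.35 CPM in WIK, a log2 difference of 1.41 ± 0.16 (SE, adjusted p = 8.4e-05). The her3-MO and WIK values did not overlap in any of these 3 genes, which the rule of naming required of PHLDA3. BAX (ENSDARG00000020623), the pore-forming partner of Puma, rose by 0.43 ± 0.07 (SE, adjusted p = 0.0017) and APAF1, the core of the apoptosome, by 0.66 ± 0.09 (SE, adjusted p = 0.00029). foxo3b, a forkhead factor of the stress response, rose by 1.34 ± 0.23 (SE, adjusted p = 0.0025). CCNG1, cyclin G1, was among the 4 most abundant genes called higher, at 1005, 1138 and 1167 CPM in the her3-MO libraries, against 938, 573 and 534 CPM in WIK, and rps27l, a relative of the ribosomal protein S27, rose by 0.81 ± 0.22 (SE, adjusted p = 0.024). Both calls were lost without WIK replicate 2, without WIK replicate 3 and without her3-MO replicate 2 or 3, with adjusted p = 0.062, 0.054, 0.087 and 0.08 for CCNG1 and 0.063, 0.051, 0.072 and 0.084 for rps27l.

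The 16 lower members included a sestrin, an inhibitor of apoptosis and GADD45 stress genes. sesn3, a sestrin, fell by 1.08 on the log2 scale (adjusted p = 9.3e-05), xiap, an inhibitor of caspases, by 0.996 (0.00089), and GADD45G (ENSDARG00000016725), a stress sensor that is also active in neural precursors, by 0.80 (0.00018). RRM2B, another entry of this list, had log2 differences from WIK of -1.20 to -0.58 when single libraries were left out. In mm-MO 15 of the 64 were higher and 9 lower than in WIK (14 and 14 without mm-MO replicate 3), and in her3-MO 0 were higher and 3 lower than in mm-MO (0 and 1 without it). mdm2 was lower in her3-MO than in mm-MO, with a log2 difference of -0.55 ± 0.11 (SE, adjusted p = 0.013) and so was BAX, with -0.29 ± 0.07 (SE, adjusted p = 0.037), and each her3-MO value of both genes lay between the mm-MO and the WIK values. For the DNA damage and apoptosis list, the numbers higher and lower were 13 and 9 without WIK replicate 1, 9 and 8 without her3-MO replicate 2, 9 and 10 without her3-MO replicate 3, 13 and 10 without both libraries that stood apart and 21 and 12 with plain totals.

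**Figure D5:**
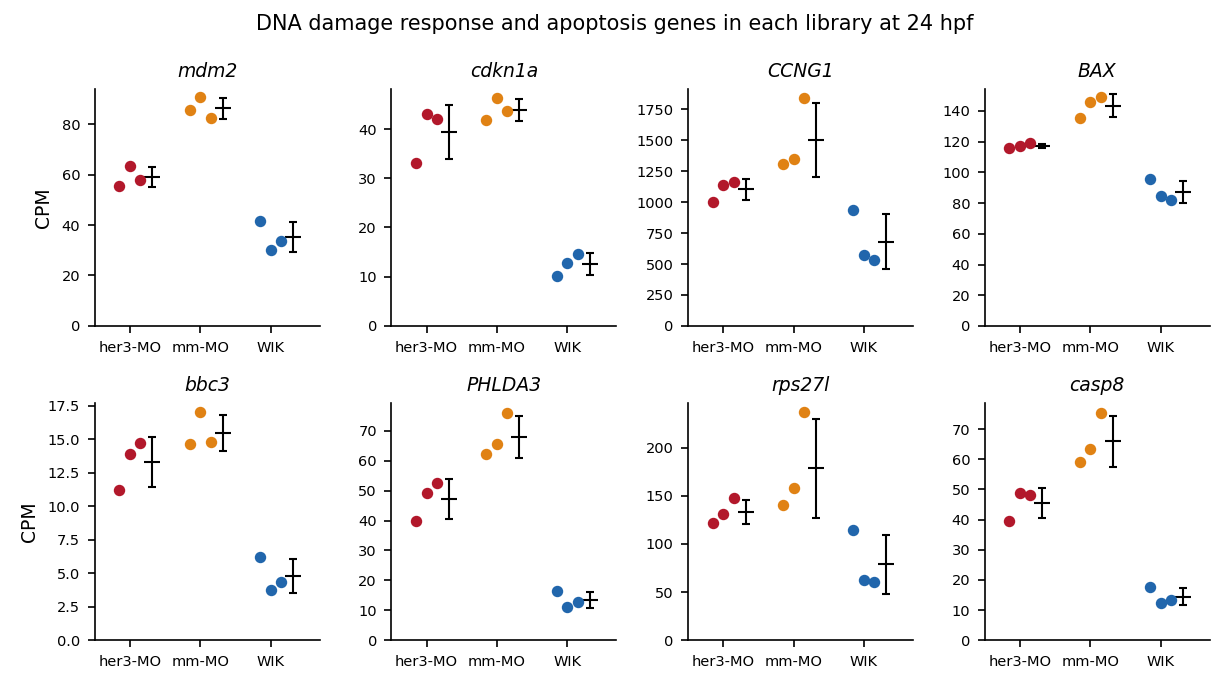
CPM of 8 genes of the DNA damage response and apoptosis list in each library at 24 hpf, with her3-MO at the left, mm-MO in the middle and WIK at the right; points are single libraries and the black bar is the mean ± SD (n = 3). Every her3-MO and mm-MO point lies above every WIK point in the 8 panels, and for mdm2 and BAX the her3-MO points lie below the mm-MO points. The 8 were chosen among the members called higher, and 16 of the list's 64 genes tested were called lower.

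In the her, hes and hey family, to which her3 belongs, 11 of 28 genes were lower in her3-MO than in WIK and 1, her3 itself, was higher; the list's median was -0.28, against 0.01 over all genes. The falls included copies of her4, the Notch target of neural progenitors. her4.2 (ENSDARG00000094426) had 50.7, 44.15 and 41.9 CPM in the her3-MO libraries, 35.9, 30.2 and 32.6 CPM in mm-MO and 70.0, 69.0 and 62.9 CPM in WIK. her4.4 (ENSDARG00000009822) had 37.9, 31.8 and 34.4 CPM in the her3-MO libraries, 44.5, 39.2 and 35.6 CPM in mm-MO and 53.1, 63.2 and 56.7 CPM in WIK. her4.1 (ENSDARG00000056732) had 15.4, 13.6 and 12.9 CPM in the her3-MO libraries, 12.9, 12.7 and 17.7 CPM in mm-MO and 33.2, 21.8 and 19.5 CPM in WIK. The her3-MO values lay below all WIK values in each. The log2 differences from WIK were -0.56 ± 0.09 (SE, adjusted p = 0.0012) for her4.2, -0.72 ± 0.10 (SE, adjusted p = 0.0003) for her4.4 and -0.77 ± 0.16 (SE, adjusted p = 0.0067) for her4.1, and her4.5 and her4.3 fell by 0.77 and 0.75 on the log2 scale. her4.2 was higher in her3-MO than in mm-MO by 0.46 ± 0.09 (SE, adjusted p = 0.0074). The her4 genes are near-identical copies of one another, so their counts may have been split between them. her15.1, another Notch-dependent family member, fell by 0.46 and her5, a factor of the midbrain-hindbrain boundary, by 0.63. In mm-MO 0 of the 28 were higher and 9 lower than in WIK (0 and 9 without mm-MO replicate 3). For this family, the numbers higher and lower were 1 and 7 without WIK replicate 1, 1 and 7 without her3-MO replicate 2, 1 and 7 without her3-MO replicate 3, 1 and 9 without both libraries that stood apart and 2 and 8 with plain totals.

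Of 39 genes of the Notch pathway, 1 was higher and 1 lower in her3-MO, or 5.13% called. jag1b, a Notch ligand, had 33.9, 38.4 and 39.5 CPM in the her3-MO libraries, 30.1, 30.5 and 25.7 CPM in mm-MO and 26.3, 31.2 and 26.9 CPM in WIK. The her3-MO values lay above all others. It differed from WIK by 0.40 ± 0.09 (SE, adjusted p = 0.0092) and from mm-MO by 0.37 ± 0.09 (SE, adjusted p = 0.03). DLD, the ligand deltaD, had 228, 204 and 199 CPM in the her3-MO libraries, against 275, 249 and 231 CPM in WIK, a difference of -0.26 ± 0.08 (SE, adjusted p = 0.04) that did not pass without WIK replicate 1 or 2 or without her3-MO replicate 2 or 3 (adjusted p = 0.15, 0.06, 0.14 and 0.14). For the Notch list, the numbers higher and lower were 1 and 0 without WIK replicate 1, 8 and 3 without WIK replicate 3, 3 and 3 without her3-MO replicate 1, 3 and 2 without both libraries that stood apart and 7 and 0 with plain totals.

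Proneural genes and early neurons, the class that her3 restrains, were called in 3 of 51 cases, or 5.88%. atoh1b, a proneural factor of the hindbrain and ear, had 15.3, 16.9 and 17.8 CPM in the her3-MO libraries, 16.0, 16.2 and 17.1 CPM in mm-MO and 8.07, 9.03 and 11.8 CPM in WIK, a log2 difference from WIK of 0.77 ± 0.14 (SE, adjusted p = 0.0031). Its values in both injected groups lay above those in WIK, and it did not pass the test between them. olig4 differed by 0.64 ± 0.17, a call lost without WIK replicate 2 (adjusted p = 0.055) and without her3-MO replicate 3 (0.077). MNX1 (ENSDARG00000035984), a motor neuron factor, differed by -0.79 ± 0.24, a call lost without WIK replicate 1 or 2 or her3-MO replicate 2 or 3 (adjusted p = 0.11, 0.074, 0.15 and 0.086). For the proneural list, the numbers higher and lower were 2 and 0 without WIK replicate 1, 3 and 6 without her3-MO replicate 1, 3 and 4 without both libraries that stood apart and 3 and 0 with plain totals. Of 98 synapse and transmitter genes, 1 was higher and 6 lower. For the synapse list, the numbers higher and lower were 1 and 1 without WIK replicate 1, 1 and 3 without WIK replicate 2, 5 and 6 without WIK replicate 3, 1 and 13 without her3-MO replicate 1, 0 and 1 without her3-MO replicate 2, 0 and 1 without her3-MO replicate 3, 1 and 11 without both libraries that stood apart and 3 and 1 with plain totals.

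Neural progenitor and neural plate genes were more often lower. Of 82 genes, 20 were lower and 1 higher in her3-MO, with a median of -0.17. sox21a, a SoxB2 factor of the neural tube, had 28.1, 23.1 and 20.9 CPM in the her3-MO libraries, 22.6, 24.9 and 29.0 CPM in mm-MO and 66.1, 42.9 and 39.3 CPM in WIK. sox19a, an early SoxB1 factor, had 309, 223 and 233 CPM in the her3-MO libraries, 224, 215 and 238 CPM in mm-MO and 365, 351 and 328 CPM in WIK. SOX21 (ENSDARG00000008540) had 45.6, 38.4 and 36.8 CPM in the her3-MO libraries, 39.8, 39.8 and 35.0 CPM in mm-MO and 54.3, 65.1 and 60.7 CPM in WIK. In these 3 genes all injected libraries lay below all WIK libraries. The log2 differences from WIK were -0.998 ± 0.16 (SE, adjusted p = 0.0013) for sox21a, -0.46 ± 0.09 (SE, adjusted p = 0.0063) for sox19a and -0.57 ± 0.09 (SE, adjusted p = 0.0009) for SOX21. EN1 (ENSDARG00000014321), engrailed of the midbrain-hindbrain boundary, fell by 0.83. SOX4 (ENSDARG00000098834), a factor of differentiating neurons, was the member that rose, by 0.49 ± 0.08 (SE, adjusted p = 0.0009). GFAP, the glial filament of radial glia, fell by 0.46, a call lost without her3-MO replicate 2 or 3 (adjusted p = 0.052 and 0.053). In mm-MO 2 of the 82 were higher and 13 lower than in WIK (2 and 15 without mm-MO replicate 3), and in her3-MO 1 was higher and 1 lower than in mm-MO (1 and 0 without it). For the neural plate list, the numbers higher and lower were 1 and 9 without WIK replicate 1, 4 and 24 without WIK replicate 3, 1 and 5 without her3-MO replicate 2, 1 and 6 without her3-MO replicate 3, 1 and 21 without both libraries that stood apart and 2 and 8 with plain totals.

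The hindbrain segment list had 12 of 44 genes lower and 1 higher. None of the 13 was called in every fit that left out 1 library. The list includes hox genes, so its count is not independent of that of the hox clusters. Against WIK, mm-MO had 0 of the 44 higher and 5 lower (1 and 5 without mm-MO replicate 3). limma called 0 of the 44 between her3-MO and mm-MO (4 at an unadjusted p under 0.05, and 0 with voom weights). mafbb, a factor of rhombomeres, had 32.1, 36.9 and 40.1 CPM in the her3-MO libraries, against 78.8, 53.5 and 49.7 CPM in WIK, a difference of -0.71 ± 0.18 (SE, adjusted p = 0.017), with adjusted p = 0.073 without WIK replicate 1 and 0.056 without her3-MO replicate 2. For the hindbrain list, the numbers higher and lower were 0 and 2 without WIK replicate 1, 6 and 12 without WIK replicate 3, 0 and 2 without her3-MO replicate 2, 0 and 2 without her3-MO replicate 3, 0 and 10 without both libraries that stood apart and 3 and 2 with plain totals.

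Some glycolytic enzymes were lower in her3-MO. The list of glycolysis and the respiratory chain had 4 of 148 genes higher and 19 lower, and 12 of the 19 were among its 31 glycolytic enzymes, of which 0 were higher and 19 not called (a split of the list made after the values were seen). LDHA (ENSDARG00000101251), lactate dehydrogenase A, had 56.2, 45.9 and 38.4 CPM in the her3-MO libraries, 64.6, 63.4 and 58.0 CPM in mm-MO and 131, 123 and 125 CPM in WIK. TPI1 (ENSDARG00000040988), triosephosphate isomerase, had 105, 91.0 and 87.5 CPM in the her3-MO libraries, 116, 118 and 126 CPM in mm-MO and 230.0, 195 and 179.5 CPM in WIK. GPI (ENSDARG00000012987), glucose-6-phosphate isomerase, had 63.6, 64.3 and 63.7 CPM in the her3-MO libraries, 72.3, 79.0 and 79.2 CPM in mm-MO and 119, 131 and 126 CPM in WIK. Every injected library was below every WIK library in these 3 genes. TPI1 and GPI, like ALDOA and ENO1 below, share their symbols with other genes, whose values are not reported here. Their log2 differences from WIK were -1.44 ± 0.10 (SE, adjusted p = 7.6e-07) for LDHA, -1.08 ± 0.11 (SE, adjusted p = 2.4e-05) for TPI1 and -0.96 ± 0.09 (SE, adjusted p = 1.3e-05) for GPI.

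Some of these enzymes were also lower than in mm-MO. pgam1a (ENSDARG00000005423), phosphoglycerate mutase, had 43.0, 47.2 and 45.5 CPM in the her3-MO libraries, 72.1, 78.0 and 102 CPM in mm-MO and 118, 87.4 and 89.1 CPM in WIK. GAPDHS (ENSDARG00000039914), a glyceraldehyde-3-phosphate dehydrogenase, had 104, 79.9 and 83.7 CPM in the her3-MO libraries, 122, 131 and 138 CPM in mm-MO and 134, 132 and 122 CPM in WIK. Both were lowest in her3-MO, while mm-MO overlapped WIK. They differed from WIK by -1.09 ± 0.12 (SE, adjusted p = 8.1e-05) and -0.55 ± 0.09 (SE, adjusted p = 0.0022) in that order, and from mm-MO by -0.87 ± 0.12 (SE, adjusted p = 0.00068) and -0.56 ± 0.09 (SE, adjusted p = 0.0027). LDHA was lower than in mm-MO as well, with a log2 difference of -0.42 ± 0.10 (SE, adjusted p = 0.038). ALDOA (ENSDARG00000011665), aldolase A, fell against WIK by 0.87, GAPDH (ENSDARG00000043457) by 0.68 and ENO1 (ENSDARG00000022456), enolase, by 0.99, with all 3 called in every fit that left out 1 library.

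In mm-MO 1 of the 31 glycolytic enzymes was higher and 7 lower than in WIK (1 and 8 without mm-MO replicate 3), and in her3-MO 0 were higher and 3 lower than in mm-MO (0 and 3 without it). For these 31, the numbers higher and lower were 0 and 11 without WIK replicate 1, 0 and 14 without both libraries that stood apart and 1 and 11 with plain totals. Of the 93 genes of the respiratory chain and ATP synthase, 2 were higher and 5 lower. The 2 were mitochondrially encoded, MT-ND5 with 701, 803 and 856 CPM in the her3-MO libraries, against 586, 578 and 588 CPM in WIK and mt-nd4l with a difference of 0.55 ± 0.12 (SE, adjusted p = 0.0088), while cox6b1, at the other extreme, is encoded in the nucleus. OGDH (ENSDARG00000103428), of the citric acid cycle, rose by 0.82 ± 0.16 (SE, adjusted p = 0.005). For the whole list of 148, the numbers higher and lower were 6 and 14 without WIK replicate 1, 9 and 38 without WIK replicate 3, 7 and 18 without both libraries that stood apart and 17 and 15 with plain totals. Outside this list, P4HA1 (ENSDARG00000071082) and PLOD1 (ENSDARG00000059746), hydroxylases of collagen, fell by 1.36 and 0.97, and EGLN3, an oxygen-dependent prolyl hydroxylase, by 1.49.

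Circadian clock genes were lower in her3-MO in 16 of 58 cases and higher in 1, with a median of -0.13. PER1 (ENSDARG00000012499), a period gene of the clock's negative limb, had 20.8, 21.7 and 19.9 CPM in the her3-MO libraries, 27.0, 26.1 and 21.4 CPM in mm-MO and 54.4, 65.9 and 71.4 CPM in WIK. ciarta (ENSDARG00000058094), a repressor of clock transcription, had 43.7, 37.8 and 38.4 CPM in the her3-MO libraries, 42.7, 41.2 and 44.0 CPM in mm-MO and 77.8, 66.4 and 66.2 CPM in WIK. NR1D2 (ENSDARG00000009594), a Rev-erb nuclear receptor, had 40.5, 38.9 and 36.3 CPM in the her3-MO libraries, 42.2, 38.8 and 39.5 CPM in mm-MO and 57.8, 59.8 and 54.1 CPM in WIK. All 3 were lower in both injected groups than in any WIK library. PER1, like CRY1 below, shares its symbol with another gene or genes, whose values are not reported here. The log2 differences from WIK were -1.59 ± 0.11 (SE, adjusted p = 4.3e-07) for PER1, -0.80 ± 0.08 (SE, adjusted p = 1.7e-05) for ciarta and -0.56 ± 0.07 (SE, adjusted p = 9.4e-05) for NR1D2, and none of the 3 passed the test between her3-MO and mm-MO.

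Other clock genes were lower than in mm-MO too. CRY1 (ENSDARG00000045768), a cryptochrome, had 14.2, 14.3 and 15.5 CPM in the her3-MO libraries, 25.0, 24.2 and 23.0 CPM in mm-MO and 21.2, 25.1 and 25.4 CPM in WIK. lonrf1 (ENSDARG00000078567), a LON-domain ring finger gene of the list, had 23.7, 26.2 and 23.5 CPM in the her3-MO libraries, 36.5, 37.0 and 41.5 CPM in mm-MO and 48.48, 45.3 and 52.3 CPM in WIK. Each her3-MO value was below the 6 others for both genes, and the mm-MO values of CRY1 overlapped those of WIK. CRY1 differed from WIK by -0.68 ± 0.09 (SE, adjusted p = 0.00019) and from mm-MO by -0.70 ± 0.09 (SE, adjusted p = 0.0002). For lonrf1 the differences were -0.98 ± 0.08 (SE, adjusted p = 1.9e-06) from WIK and -0.64 ± 0.08 (SE, adjusted p = 0.00015) from mm-MO. cry5, listed for the light-activated photolyase and cryptochrome family, differed from mm-MO by -0.74 ± 0.15 (SE, adjusted p = 0.0096) and from WIK by -0.63 ± 0.15 (SE, adjusted p = 0.013), the second of which was lost without her3-MO replicate 2 (adjusted p = 0.065). RORB (ENSDARG00000033498), an activator of the clock's positive limb, was the member that rose, by 0.84 ± 0.18 (SE, adjusted p = 0.0091). In mm-MO 3 of the 58 were higher and 10 lower than in WIK (3 and 9 without mm-MO replicate 3), and in her3-MO 0 were higher and 5 lower than in mm-MO (0 and 4 without it). For the clock list, the numbers higher and lower were 1 and 13 without WIK replicate 1, 3 and 15 without WIK replicate 3, 1 and 10 without her3-MO replicate 2, 1 and 13 without both libraries that stood apart and 2 and 11 with plain totals. The hour at which each pool was collected is not given in the sources used here, and its part in these differences was not tested.

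The hox clusters, which pattern the body axis, had 24 of 48 genes lower in her3-MO and 0 higher, a median of -0.39. HOXB7 (ENSDARG00000056030) had 20.3, 14.3 and 16.5 CPM in the her3-MO libraries, 20.5, 18.7 and 19.0 CPM in mm-MO and 41.9, 26.9 and 24.9 CPM in WIK. HOXC6 (ENSDARG00000101954) had 14.2, 11.1 and 8.95 CPM in the her3-MO libraries, 14.8, 10.9 and 10.9 CPM in mm-MO and 26.2, 17.3 and 19.0 CPM in WIK. hoxc11b (ENSDARG00000102631) had 6.78, 5.50 and 5.16 CPM in the her3-MO libraries, 7.50, 7.04 and 6.18 CPM in mm-MO and 10.7, 9.88 and 8.90 CPM in WIK. her3-MO lay below WIK in every library, and mm-MO did so as well. The log2 differences were -0.83 ± 0.16 (SE, adjusted p = 0.0048) for HOXB7, -0.84 ± 0.17 (SE, adjusted p = 0.0053) for HOXC6 and -0.71 ± 0.14 (SE, adjusted p = 0.0041) for hoxc11b. In mm-MO 0 of the 48 hox genes were higher and 19 lower than in WIK (1 and 9 without mm-MO replicate 3). limma called 0 of the 48 between her3-MO and mm-MO (1 at an unadjusted p under 0.05, and 0 with voom weights), where HOXB7, for one, differed by -0.20 ± 0.16 (SE, adjusted p = 0.64). Over all 20738 genes tested, 3157 had an unadjusted p under 0.05 in that limma comparison. For the hox list, the numbers higher and lower were 0 and 8 without WIK replicate 1, 0 and 5 without her3-MO replicate 2, 0 and 5 without her3-MO replicate 3, 0 and 25 without both libraries that stood apart and 0 and 9 with plain totals.

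Genes of the segmentation clock and presomitic mesoderm were lower in 11 of 47 cases and higher in 0. Against WIK, mm-MO had 0 of the 47 higher and 4 lower (0 and 4 without mm-MO replicate 3). Between her3-MO and mm-MO, 0 were higher and 3 lower in her3-MO (0 and 3 without mm-MO replicate 3). apela, a secreted ligand of the apelin receptor, had 11.3, 10.3 and 6.57 CPM in the her3-MO libraries, against 24.9, 13.7 and 18.5 CPM in WIK, a difference of -0.97 ± 0.21 (SE, adjusted p = 0.0089). vent, a ventral homeobox gene, had 1.61, 2.54 and 3.40 CPM in the her3-MO libraries, against 5.60, 5.07 and 4.71 CPM in WIK, a difference of -0.94 ± 0.23 (SE, adjusted p = 0.015). her3-MO and WIK did not overlap in either gene. For the segmentation list, the numbers higher and lower were 0 and 3 without WIK replicate 1, 3 and 11 without WIK replicate 3, 0 and 2 without her3-MO replicate 2, 0 and 2 without her3-MO replicate 3, 1 and 7 without both libraries that stood apart and 3 and 3 with plain totals. In the list of Wnt, Fgf, Hedgehog, Bmp and retinoic acid genes, 26 of 193 were lower and 6 higher. SFRP1 (ENSDARG00000057678), a secreted Wnt antagonist, fell by 1.02 ± 0.22 (SE, adjusted p = 0.0086), and RSPO1 was its highest member. ALDH1A2, the enzyme that makes retinoic acid, had 28.0, 24.6 and 23.5 CPM in the her3-MO libraries, 48.0, 49.2 and 43.1 CPM in mm-MO and 45.7, 39.0 and 40.6 CPM in WIK. It was lower in her3-MO than in mm-MO, with a log2 difference of -0.87 ± 0.17 (SE, adjusted p = 0.0071) and than in WIK, with -0.71 ± 0.17 (SE, adjusted p = 0.013), the second lost without her3-MO replicate 2 or 3 (adjusted p = 0.052 in both). Of the 193 signalling genes, mm-MO had 7 higher and 16 lower than WIK (5 and 20 without mm-MO replicate 3). Between her3-MO and mm-MO, 0 were higher and 2 lower in her3-MO (0 and 1 without mm-MO replicate 3). For the signalling list, the numbers higher and lower were 4 and 8 without WIK replicate 1, 15 and 23 without WIK replicate 2, 33 and 32 without WIK replicate 3, 3 and 8 without her3-MO replicate 2, 3 and 8 without her3-MO replicate 3, 5 and 15 without both libraries that stood apart and 21 and 8 with plain totals.

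Lens genes were the list most often higher, with 25 of 72 higher and 2 lower and a median of 0.38. crybb1l1 (ENSDARG00000007576), a beta crystallin, had 108, 113 and 127 CPM in the her3-MO libraries, 71.3, 80.6 and 104 CPM in mm-MO and 60.0, 64.5 and 59.4 CPM in WIK. CRYBB1 (ENSDARG00000068507) had 101, 95.3 and 105 CPM in the her3-MO libraries, 64.7, 73.9 and 95.8 CPM in mm-MO and 61.0, 55.0 and 53.003 CPM in WIK. All her3-MO values lay above all WIK values, and mm-MO lay mostly between. The log2 differences from WIK were 0.91 ± 0.17 (SE, adjusted p = 0.0031) for crybb1l1 and 0.83 ± 0.16 (SE, adjusted p = 0.0049) for CRYBB1. Both genes listed as MIP, the lens aquaporin, rose, by 0.83 ± 0.18 (ENSDARG00000013963) and 0.90 ± 0.19 (ENSDARG00000037285). In mm-MO 6 of the 72 were higher and 1 lower than in WIK (2 and 2 without mm-MO replicate 3), and in her3-MO 1 was higher and 1 lower than in mm-MO (4 and 0 without it). For the lens list, the numbers higher and lower were 26 and 1 without WIK replicate 1, 15 and 0 without her3-MO replicate 2, 10 and 2 without her3-MO replicate 3, 26 and 2 without both libraries that stood apart and 34 and 1 with plain totals. Crystallin genes occur in near-identical copies whose reads may have been split, and 9 of the 27 calls held in every fit that left out 1 library. Of 103 genes of the eye field, retina and photoreceptors, 3 were higher and 2 lower. For the eye list, the numbers higher and lower were 2 and 1 without WIK replicate 1, 8 and 3 without WIK replicate 3, 2 and 5 without both libraries that stood apart and 12 and 2 with plain totals.

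The neural crest and pigment list had 12 of 74 genes higher in her3-MO than in WIK and 3 lower. Of its genes of melanin synthesis, 3 were higher than in mm-MO as well. TYRP1 (ENSDARG00000029204), an enzyme of melanin synthesis, had 63.6, 69.5 and 62.5 CPM in the her3-MO libraries, 36.8, 44.11 and 44.4 CPM in mm-MO and 35.8, 37.8 and 35.9 CPM in WIK. The second gene under that symbol (ENSDARG00000056151) had 150.4, 145 and 139.8 CPM in the her3-MO libraries, 94.6, 111 and 115 CPM in mm-MO and 104, 108 and 101 CPM in WIK. DCT (ENSDARG00000006008), dopachrome tautomerase of the same pathway, had 129.6, 120.1 and 115 CPM in the her3-MO libraries, 75.1, 89.5 and 95.1 CPM in mm-MO and 96.3, 93.6 and 88.4 CPM in WIK. In these 3 genes her3-MO lay above all 6 other libraries. The 2 TYRP1 genes differed from WIK by 0.83 ± 0.09 (SE, adjusted p = 3.0e-05) and 0.47 ± 0.08 (SE, adjusted p = 0.0017), and from mm-MO by 0.64 ± 0.09 (SE, adjusted p = 0.00036) and 0.44 ± 0.08 (SE, adjusted p = 0.0042). For DCT the differences were 0.39 ± 0.08 (SE, adjusted p = 0.0063) from WIK and 0.49 ± 0.08 (SE, adjusted p = 0.0019) from mm-MO, and mm-MO did not pass the test against WIK in any of the 3, with DCT at -0.11 (adjusted p = 0.43). csf1ra, a receptor of both yellow pigment cells and macrophages, rose against WIK by 1.25 ± 0.27 (SE, adjusted p = 0.0084). mych, a myc gene of the neural crest, fell by 0.60. In mm-MO 1 of the 74 was higher and 4 lower than in WIK (2 and 6 without mm-MO replicate 3), and in her3-MO 5 were higher and 1 lower than in mm-MO (6 and 0 without it). For the pigment list, the numbers higher and lower were 6 and 1 without WIK replicate 1, 10 and 6 without her3-MO replicate 1, 5 and 2 without her3-MO replicate 2, 6 and 3 without her3-MO replicate 3, 10 and 4 without both libraries that stood apart and 22 and 2 with plain totals.

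Macrophage and neutrophil genes were higher in 12 of 48 cases and lower in 4, with a median of 0.10. Among the 4 lower ones, SLC7A7 had log2 differences from WIK of -1.03 to -0.65 when single libraries were left out. CTSC had -0.89 to -0.35 in the same fits. marco was the largest rise. MPEG1 (ENSDARG00000055290), a pore-forming protein of macrophages, had 8.35, 9.44 and 10.3 CPM in the her3-MO libraries, 8.85, 8.21 and 10.6 CPM in mm-MO and 5.94, 4.59 and 5.42 CPM in WIK. spi1a, a myeloid transcription factor, had 5.72, 6.15 and 5.25 CPM in the her3-MO libraries, 3.59, 3.00 and 4.23 CPM in mm-MO and 2.72, 3.38 and 3.12 CPM in WIK. CSF3R, the receptor of granulocyte colony-stimulating factor, had 2.501, 3.04 and 2.56 CPM in the her3-MO libraries, 2.32, 1.83 and 1.49 CPM in mm-MO and 0.255, 1.004 and 1.18 CPM in WIK. Its value of 0.255 CPM, in WIK replicate 1, was that of 3 reads. her3-MO lay above WIK in every library of these 3, and for spi1a above mm-MO too. The log2 differences from WIK were 0.76 ± 0.15 (SE, adjusted p = 0.0046) for MPEG1, 0.80 ± 0.13 (SE, adjusted p = 0.0018) for spi1a and 1.36 ± 0.27 (SE, adjusted p = 0.0053) for CSF3R, and spi1a differed from mm-MO by 0.61 ± 0.13 (SE, adjusted p = 0.02). In mm-MO 8 of the 48 were higher and 2 lower than in WIK (4 and 1 without mm-MO replicate 3), and in her3-MO 3 were higher and 1 lower than in mm-MO (2 and 0 without it). For the macrophage list, the numbers higher and lower were 9 and 1 without WIK replicate 1, 12 and 2 without WIK replicate 2, 12 and 2 without her3-MO replicate 1, 7 and 0 without her3-MO replicate 2, 5 and 4 without her3-MO replicate 3, 12 and 1 without both libraries that stood apart and 16 and 0 with plain totals.

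Of 47 immediate-early genes 21 were lower and 0 higher than in WIK, where the levels of those named here differed widely between pools, with a median of -0.43. FOSL1 (ENSDARG00000015355), a subunit of the AP-1 factor, had 3.01, 4.23 and 4.499 CPM in the her3-MO libraries, 3.67, 4.42 and 4.17 CPM in mm-MO and 26.5, 6.18 and 31.3 CPM in WIK. ATF3 (ENSDARG00000007823), a stress-induced factor, had 13.5, 12.8 and 12.7 CPM in the her3-MO libraries, 9.74, 11.8 and 9.90 CPM in mm-MO and 50.3, 19.9 and 54.6 CPM in WIK. From the list of inflammation and complement, PTGS2 (ENSDARG00000010276), the inducible cyclooxygenase, had 5.04, 6.28 and 6.84 CPM in the her3-MO libraries. It had 3.71, 3.50 and 3.97 CPM in mm-MO and 44.3, 13.9 and 59.7 CPM in WIK. In each of them WIK replicate 2 lay well below WIK replicates 1 and 3, though above the injected libraries. The log2 differences from WIK were -2.04 ± 0.42 (SE, adjusted p = 0.0065) for FOSL1, -1.51 ± 0.25 (SE, adjusted p = 0.0017) for ATF3 and -2.38 ± 0.34 (SE, adjusted p = 0.00051) for PTGS2, each called in all 6 fits that left out 1 library. MMP9 (ENSDARG00000042816), a gelatinase of inflamed tissue and also of the inflammation list, had 2.37, 2.42 and 2.43 CPM in the her3-MO libraries. It had 1.92, 2.67 and 3.14 CPM in mm-MO and 20.5, 3.38 and 32.4 CPM in WIK. Its difference was -2.26 ± 0.50 (SE, adjusted p = 0.01), with adjusted p = 0.054 without WIK replicate 1. FOS (ENSDARG00000031683) had 8.86, 11.6 and 14.1 CPM in the her3-MO libraries, against 58.0, 12.9 and 45.6 CPM in WIK, a difference of -1.48 ± 0.37 (SE, adjusted p = 0.016) with adjusted p = 0.084 without WIK replicate 1 and 0.054 without her3-MO replicate 2.

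Mean levels of the immediate-early list were centred over the 9 libraries of the 3 groups on the log2 scale. They were -0.12, -0.14 and -0.12 in her3-MO, -0.24, -0.20 and -0.21 in mm-MO and 0.46, 0.04 and 0.54 in WIK. ier2b was the member higher in her3-MO than in mm-MO, by 1.01 ± 0.16 (SE, adjusted p = 0.0016), with 22.3, 21.6 and 24.1 CPM in the her3-MO libraries, 11.5, 10.2 and 11.3 CPM in mm-MO and 54.8, 30.2 and 46.2 CPM in WIK. In mm-MO 0 of the 47 were higher and 20 lower than in WIK (0 and 20 without mm-MO replicate 3). For the immediate-early list, the numbers higher and lower were 0 and 12 without WIK replicate 1, 3 and 17 without WIK replicate 3, 0 and 12 without her3-MO replicate 2, 0 and 13 without her3-MO replicate 3, 0 and 12 without both libraries that stood apart and 1 and 14 with plain totals. Of 45 genes of inflammation and complement, 4 were higher and 11 lower. Set against WIK, mm-MO had 1 of the 45 higher and 12 lower (3 and 12 without mm-MO replicate 3). Between her3-MO and mm-MO, 1 was higher and 0 lower in her3-MO (1 and 0 without mm-MO replicate 3). irg1l, listed for an itaconate-producing enzyme of inflamed skin, had 3.86, 5.29 and 6.70 CPM in the her3-MO libraries, against 44.0, 3.54 and 97.1 CPM in WIK, a difference of -2.20 ± 0.71 (SE, adjusted p = 0.048) that passed in 1 of the 6 fits that left out 1 library and had adjusted p = 0.21 without WIK replicate 1, 0.13 without WIK replicate 3, and 0.11, 0.12 and 0.089 without her3-MO replicates 1, 2 and 3. ACOD1, the symbol of the itaconate-producing enzyme, went the other way. It had 2.88, 5.37 and 5.25 CPM in the her3-MO libraries, against 1.87, 1.69 and 3.12 CPM in WIK, with overlap. Its difference was 0.87 ± 0.25 (SE, adjusted p = 0.033). NOD1, another higher member, differed from WIK by 0.98 (adjusted p = 0.041). Each of these rises passed in 2 of the 6 fits that left out 1 library. c7a, a complement component, was higher in her3-MO than in mm-MO, by 1.25 ± 0.17 (SE, adjusted p = 0.00034). For the inflammation list, the numbers higher and lower were 0 and 5 without WIK replicate 1, 4 and 17 without WIK replicate 2, 8 and 10 without WIK replicate 3, 0 and 5 without her3-MO replicate 2, 0 and 8 without her3-MO replicate 3, 4 and 4 without both libraries that stood apart and 5 and 7 with plain totals.

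In the list of matrix metalloproteinases and their inhibitors, 7 of 46 genes were higher and 3 lower. MMP2 (ENSDARG00000017676), a gelatinase of mesenchyme, had 179, 208 and 199.8 CPM in the her3-MO libraries, 235, 252 and 243 CPM in mm-MO and 111, 106 and 110.2 CPM in WIK. It was higher than WIK in every injected library and highest in mm-MO, with a difference of 0.84 ± 0.08 (SE, adjusted p = 2.0e-05) from WIK and -0.32 ± 0.08 (SE, adjusted p = 0.046) from mm-MO. For the metalloproteinase list, the numbers higher and lower were 3 and 2 without WIK replicate 1, 15 and 4 without WIK replicate 3, 3 and 3 without her3-MO replicate 2, 3 and 3 without her3-MO replicate 3, 7 and 2 without both libraries that stood apart and 10 and 3 with plain totals.

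Of 115 sarcomere and calcium handling genes, 1 was higher in her3-MO, 32 were lower and 82 were not called, with a median of -0.40. This list divided the her3-MO pools. TNNC2 (ENSDARG00000070835), troponin C of fast muscle, had 620.2, 305 and 182 CPM in the her3-MO libraries, 603, 547 and 546 CPM in mm-MO and 899, 666 and 537 CPM in WIK. her3-MO replicate 1 lay within the range of the other groups, and replicates 2 and 3 lay below it. Its difference of -1.07 ± 0.30 (SE, adjusted p = 0.028) was lost without WIK replicate 1 (adjusted p = 0.13) and without her3-MO replicate 2 or 3 (0.096 and 0.11). The centred list means were 0.19, -0.23 and -0.41 in her3-MO, 0.13, 0.07 and -0.23 in mm-MO and 0.14, 0.22 and 0.11 in WIK. For the sarcomere list, the numbers higher and lower were 1 and 6 without WIK replicate 1, 2 and 62 without her3-MO replicate 1, 0 and 6 without her3-MO replicate 2, 1 and 5 without her3-MO replicate 3, 2 and 63 without both libraries that stood apart and 4 and 14 with plain totals. In mm-MO 1 of the 115 was higher and 13 lower than in WIK (0 and 7 without mm-MO replicate 3). limma called 0 of the 115 between her3-MO and mm-MO (13 at an unadjusted p under 0.05, and 0 with voom weights). Over all 20738 genes tested, 3157 had an unadjusted p under 0.05 in that limma comparison.

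The regulators of muscle formation were called in 7 of 49 cases, 2 higher and 5 lower, none of them in every fit that left out 1 library. That is 14.3% called, about the 14.5% of all genes tested. Against WIK, mm-MO had 0 of the 49 higher and 5 lower (0 and 0 without mm-MO replicate 3). limma called 0 of the 49 between her3-MO and mm-MO (4 at an unadjusted p under 0.05, and 0 with voom weights). MYOG (ENSDARG00000009438), myogenin, had 23.7, 16.6 and 14.7 CPM in the her3-MO libraries, against 30.1, 34.1 and 30.6 CPM in WIK, a difference of -0.80 ± 0.18 (SE, adjusted p = 0.012) with adjusted p = 0.055 without her3-MO replicate 2 and 0.057 without her3-MO replicate 3. prdm1b, listed with the regulators of slow muscle, had 52.0, 78.9 and 91.0 CPM in the her3-MO libraries, against 30.1, 46.3 and 51.1 CPM in WIK, a difference of 0.79 ± 0.19 (SE, adjusted p = 0.014) with adjusted p = 0.056 without WIK replicate 1, 0.063 without her3-MO replicate 2 and 0.065 without her3-MO replicate 3. For these regulators, the numbers higher and lower were 0 and 1 without WIK replicate 1, 4 and 7 without WIK replicate 3, 3 and 15 without her3-MO replicate 1, 0 and 0 without her3-MO replicate 2, 0 and 0 without her3-MO replicate 3, 1 and 14 without both libraries that stood apart and 4 and 2 with plain totals.

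Notochord and floor plate genes were lower in 9 of 69 cases and higher in 1, or 14.5% called, the same share as over all genes tested. loxl5b, a lysyl oxidase of the notochord, had 24.8, 18.7 and 17.2 CPM in the her3-MO libraries, 28.5, 27.8 and 24.7 CPM in mm-MO and 35.1, 36.3 and 36.1 CPM in WIK, a difference from WIK of -0.83 ± 0.14 (SE, adjusted p = 0.0016). her3-MO lay below all WIK libraries. COL2A1 (ENSDARG00000069093), the collagen of the notochord sheath, was lower in her3-MO than in mm-MO, with a log2 difference of -0.67 ± 0.17 (SE, adjusted p = 0.044) and than in WIK, with -0.76 ± 0.17 (SE, adjusted p = 0.011). Another gene listed as COL2A1 (ENSDARG00000011407) varied less over the her3-MO and WIK libraries, from 310.5 to 378.1 CPM, against 173.7 to 405.3 CPM. In mm-MO 5 of the 69 were higher and 3 lower than in WIK (4 and 2 without mm-MO replicate 3), and in her3-MO 0 were higher and 6 lower than in mm-MO (0 and 5 without it). For the notochord list, the numbers higher and lower were 0 and 3 without WIK replicate 1, 3 and 9 without WIK replicate 3, 2 and 14 without her3-MO replicate 1, 0 and 3 without her3-MO replicate 2, 0 and 5 without her3-MO replicate 3, 0 and 14 without both libraries that stood apart and 6 and 3 with plain totals. Of 92 cartilage, bone and collagen genes, 6 were higher and 7 lower, or 14.1% called, about the share over all genes tested. For the cartilage list, the numbers higher and lower were 3 and 6 without WIK replicate 1, 18 and 9 without WIK replicate 3, 10 and 8 without her3-MO replicate 1, 1 and 4 without her3-MO replicate 2, 3 and 4 without her3-MO replicate 3, 5 and 9 without both libraries that stood apart and 14 and 3 with plain totals. SERPINH1 (ENSDARG00000019949), a collagen chaperone, rose by 0.62 ± 0.13 (SE, adjusted p = 0.0083), with 455, 439.6 and 435 CPM in the her3-MO libraries, 551, 578 and 704 CPM in mm-MO and 356, 265 and 251 CPM in WIK.

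Genes of cytosolic ribosomal proteins were lower in 38 of 76 cases and higher in 0, a count that moved widely with single libraries. RPS9 (ENSDARG00000011405) had 1089, 999 and 1061 CPM in the her3-MO libraries, 959.5, 1020.5 and 1304 CPM in mm-MO and 2303, 1470.0 and 1389.9 CPM in WIK. The centred list means were -0.14, -0.28 and -0.14 in her3-MO, -0.28, -0.21 and 0.18 in mm-MO and 0.77, 0.09 and 0.0026 in WIK. WIK replicate 1 was the highest of the 9 libraries by a wide margin, and it also had the lowest depth. Against WIK, mm-MO had 0 of the 76 higher and 11 lower (0 and 65 without mm-MO replicate 3). Between her3-MO and mm-MO, 0 were higher and 1 lower in her3-MO (0 and 0 without mm-MO replicate 3). For the ribosomal list, the numbers higher and lower were 0 and 5 without WIK replicate 1, 0 and 58 without WIK replicate 2, 0 and 73 without WIK replicate 3, 0 and 23 without her3-MO replicate 1, 0 and 2 without her3-MO replicate 2, 0 and 4 without her3-MO replicate 3, 0 and 8 without both libraries that stood apart and 0 and 35 with plain totals. The difference of RPS9 was -0.68 ± 0.16 (SE, adjusted p = 0.012), with adjusted p = 0.052 without her3-MO replicate 2. eef1a1l1, the translation elongation factor and the most abundant gene called lower, had 7159.7, 6620.1 and 6884 CPM in the her3-MO libraries, against 10436, 8438 and 7991 CPM in WIK, a difference of -0.37 ± 0.10 (SE, adjusted p = 0.021) with adjusted p = 0.057 without WIK replicate 1, 0.09 without her3-MO replicate 2 and 0.061 without her3-MO replicate 3.

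WIK replicate 1 was likewise the highest library for genes of the liver, pancreas, gut and yolk, of which 17 of 86 were lower in her3-MO and 0 higher. Against WIK, mm-MO had 1 of the 86 higher and 7 lower (0 and 12 without mm-MO replicate 3). Between her3-MO and mm-MO, 2 were higher and 1 lower in her3-MO (1 and 0 without mm-MO replicate 3). The centred list means were -0.40, -0.08 and -0.02 in her3-MO, -0.16, -0.0028 and 0.12 in mm-MO and 0.33, 0.10 and 0.11 in WIK, with her3-MO replicate 1 the lowest. F10, a clotting factor of the liver, had 5.13, 8.53 and 7.98 CPM in the her3-MO libraries, against 18.0, 17.3 and 13.8 CPM in WIK, a difference of -1.15 ± 0.26 (SE, adjusted p = 0.011), and was called in all 6 fits that left out 1 library. For the liver and gut list, the numbers higher and lower were 0 and 4 without WIK replicate 1, 0 and 8 without her3-MO replicate 2, 0 and 6 without both libraries that stood apart and 0 and 9 with plain totals. Erythroid genes were lower in 11 of 49 cases and higher in 1. Against WIK, mm-MO had 2 of the 49 higher and 3 lower (3 and 4 without mm-MO replicate 3). Between her3-MO and mm-MO, 0 were higher and 2 lower in her3-MO (0 and 1 without mm-MO replicate 3). hbae1.1, an embryonic globin, had 203, 277 and 272 CPM in the her3-MO libraries, against 626, 368 and 327 CPM in WIK, with WIK replicate 1 far above the others. Its difference of -0.76 ± 0.22 (SE, adjusted p = 0.031) was lost without WIK replicate 1 (adjusted p = 0.14) and without her3-MO replicate 1, 2 or 3 (0.09, 0.062 and 0.058). SLC4A1 (ENSDARG00000024560) shares the symbol of the red-cell anion exchanger with another gene, whose values are not reported here. It rose by 1.003 ± 0.14 (SE, adjusted p = 0.00051), with 6.06, 8.33 and 8.95 CPM in the her3-MO libraries, against 3.91, 3.49 and 3.38 CPM in WIK. For the erythroid list, the numbers higher and lower were 1 and 4 without WIK replicate 1, 5 and 17 without WIK replicate 3, 1 and 7 without her3-MO replicate 1, 1 and 6 without her3-MO replicate 2, 1 and 5 without her3-MO replicate 3, 1 and 4 without both libraries that stood apart and 4 and 5 with plain totals.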

How the data were processed

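The authors deposited 1 table of CPM values, in which the reads of a gene are scaled to an effective library size, with the 18 libraries as rows. Per the submitters' processing notes, edgeR 3.34.0, featureCounts 2.0.2, SAMtools 1.10 and HISAT2 2.2.1 were used with the danRer11 build; no settings are stated. The labels' protocols give poly(A) selection, ERCC spike-ins and a directional library kit. How strand and multi-mapping reads were handled is not given in the sources used here, and values of near-identical or overlapping genes are uncertain. Scaling to the spike-ins was not analysed here.

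Dividing each library's values by the CPM of 1 read gave whole numbers (tolerance 0.01). From the CPM, log2(CPM + 0.5) was fitted with limma 3.58.1 in R 4.3.3, 1 coefficient for each group across the 18 libraries, with moderated variances (trend and robust). The filter of 1 CPM in 3 libraries removed 4797 genes. p-values were adjusted by Benjamini-Hochberg over the 20738 left, and 0.05 was the threshold. Log2 differences, given ± SE, use log2(CPM + 0.5) and understate changes of low genes. The design foresaw count tests for raw counts, and since the table holds CPM the reads were used only with limma's voom weights, as an alternative. Other alternatives were the pseudocount, the filter, the scaling, the libraries fitted, a replicate block and leaving out each library. The fit was tested on simulated data. They gave every gene and library the same spread, with no library standing apart, so that test does not cover the unevenness seen here.

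The table of symbols named 23539 of the 25535 genes. The compared groups, gene lists and rules were chosen with earlier results of these data known. Genes were named by a rule: her3 and neurog1, the 12 highest and 12 lowest of the called genes that differed 2-fold or more, with no overlap between the groups, at least 1 CPM and a name that is not a clone's, the 4 most abundant called genes in each direction, and the 2 highest and 2 lowest called members of each list. Others were named after their values were seen, and some genes the rule names are not reported here.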

Additional observations from a re-analysis of the deposited data

How the results depend on the processing

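The count of 2997 genes called between her3-MO and WIK was within 1.5 times of itself with pseudocounts of 0.1 and 1, with no filter, with a filter of 5 CPM, with plain totals or median ratio scaling, without moderation of the variances, with voom weights on the recovered reads (2526) and with a replicate block over all groups (2820). It was 1039 when only the 4 groups of 24 hpf were fitted (462 higher, 577 lower, 215 of at least 2-fold) and 70 when only the 2 compared groups were fitted (41 higher, 29 lower, 54 of at least 2-fold). Fewer libraries then estimate the spread, and the groups left are less even. Within groups, the highest chi-square per degree of freedom was 34.63 in WIK and 31.29 in her3-MO at 24 hpf. It was 4.894 in the knockout at 24 hpf, 4.7 in WIK at 72 hpf and 11.06 in the knockout at 72 hpf. Plain totals gave 3099 higher and 759 lower. The number of at least 2-fold was 605 with a pseudocount of 0.1 and 212 with a pseudocount of 1, against 335 with 0.5. Leaving out 1 library at a time gave 1022 to 5254 calls, 440 to 2861 higher, 582 to 2393 lower and 173 to 958 of at least 2-fold. The cause of these differences was not tested.

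The same fits gave 1650 to 2943 calls between mm-MO and WIK and 327 to 1248 between her3-MO and mm-MO. With only the 4 groups of 24 hpf these comparisons had 1161 and 323 calls. Leaving out WIK replicate 1 and her3-MO replicate 1 together, a choice made after the data were seen, gave 2219 calls between her3-MO and WIK and 1643 between her3-MO and mm-MO. Leaving out these 2, mm-MO replicate 3 and replicate 3 of the her3 knockout at 72 hpf, which stood apart in its group too, gave 4166, then 3399 between mm-MO and WIK and 2678 between her3-MO and mm-MO. Without mm-MO replicate 3 alone these counts were 3515, 2748 and 509. These choices too were made after the data were seen.

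Replicate numbers were shared by the groups in the labels. The deviations of same-numbered her3-MO and WIK libraries from their group means had correlations of 0.073, 0.135 and -0.0471, so the numbers were not taken as pairs, and not every library correlated best with its own number. A replicate block fitted to the 2 groups alone gave 0 calls with limma, 0 in each direction, with 3645 genes at an unadjusted p under 0.05. her3 kept a log2 difference of 1.785 in that fit, with adjusted p = 0.1, and had 1.67 to 1.86 when single libraries were left out. Fits of the recovered reads with edgeR and DESeq2 were planned and not run.

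For 193 single genes under 21 alternatives, 3286 results kept their direction and their side of the threshold, 754 kept their direction and lost the threshold, and 0 changed sign. Of those 754, 192 came from the replicate block over the 2 groups and 160 from the fit of the 2 groups alone. With a filter of 5 CPM only 180 of the 193 genes had a result. Most of the 193 were named because the main fit called them, so a kept direction was favoured beforehand. Depth was least in WIK replicate 1, where 3 reads, the floor, corresponded to 0.255 CPM.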

Other observations

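The heat shock and stress list was called in both directions, with 10 of 83 genes higher in her3-MO than in WIK and 14 lower. Against WIK, mm-MO had 9 of the 83 higher and 6 lower (11 and 9 without mm-MO replicate 3). Between her3-MO and mm-MO, 0 were higher and 1 lower in her3-MO (0 and 0 without mm-MO replicate 3). HSP90AA1 (ENSDARG00000024746) had 128, 127 and 118 CPM in the her3-MO libraries, 140.0, 141 and 180.0 CPM in mm-MO and 87.9, 81.0 and 76.6 CPM in WIK, a log2 difference from WIK of 0.60 ± 0.10 (SE, adjusted p = 0.0013). HSPA8 (ENSDARG00000068992), the constitutive Hsc70 chaperone, had 2153, 1963 and 2019 CPM in the her3-MO libraries, against 3287, 2666 and 2491 CPM in WIK, a difference of -0.45 ± 0.10 (SE, adjusted p = 0.0091). Related entries went the opposite way. Another gene listed as HSPA8 (ENSDARG00000037403) had log2 differences from WIK of 1.25 to 1.85 when single libraries were left out. hsp90aa1.1 had -1.13 to -0.55 in the same fits. IGFBP1 (ENSDARG00000099351), a binding protein of insulin-like growth factors, fell by 0.85 ± 0.14 (SE, adjusted p = 0.0015). For the heat shock list, the numbers higher and lower were 8 and 9 without WIK replicate 1, 5 and 8 without her3-MO replicate 2, 7 and 7 without her3-MO replicate 3, 7 and 14 without both libraries that stood apart and 19 and 8 with plain totals. Interferon genes were called in 3 of 31 cases. isg15, a ubiquitin-like protein that interferon induces, had 1.48, 2.42 and 2.12 CPM in the her3-MO libraries, 2.49, 3.83 and 3.71 CPM in mm-MO and 0.679, 0.264 and 0.767 CPM in WIK, a difference from WIK of 1.24 ± 0.27 (SE, adjusted p = 0.0089). gbp2, a guanylate-binding protein, was lower in her3-MO than in mm-MO, with a log2 difference of -1.08 ± 0.17 (SE, adjusted p = 0.0016), and than in WIK, with -0.72 ± 0.17 (SE, adjusted p = 0.014). Against WIK IRF7 fell by 0.85 ± 0.16 (SE, adjusted p = 0.0033). For the interferon list, the numbers higher and lower were 2 and 3 without WIK replicate 1, 3 and 2 without WIK replicate 3, 3 and 2 without both libraries that stood apart and 9 and 2 with plain totals.

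Cell cycle and replication genes were called in 21 of 115 cases, 11 higher and 10 lower, or 18.3%, against 14.5% of all genes tested. For the cell cycle list, the numbers higher and lower were 9 and 3 without WIK replicate 1, 4 and 2 without her3-MO replicate 2, 8 and 4 without her3-MO replicate 3, 9 and 6 without both libraries that stood apart and 28 and 5 with plain totals. cenpe, a kinetochore motor, had 162, 177 and 169.6 CPM in the her3-MO libraries, 155, 152 and 135 CPM in mm-MO and 89.2, 125 and 128 CPM in WIK, a difference from WIK of 0.59 ± 0.11 (SE, adjusted p = 0.0035). cdkn1cb, an inhibitor of cyclin-dependent kinases, fell by 0.74 ± 0.16 (SE, adjusted p = 0.0081). In the rhabdomyosarcoma and cancer list 10 of 137 genes were higher and 10 lower, or 14.6% called, about the 14.5% of all genes tested. mdm2 was among the higher ones, and MYCL (ENSDARG00000034956) fell by 0.63 ± 0.10 (SE, adjusted p = 0.00099). For the cancer list, the numbers higher and lower were 7 and 6 without WIK replicate 1, 28 and 15 without WIK replicate 3, 10 and 17 without her3-MO replicate 1, 4 and 4 without her3-MO replicate 2, 7 and 5 without her3-MO replicate 3, 8 and 13 without both libraries that stood apart and 21 and 3 with plain totals. Lipid and sterol genes had 9 of 93 higher and 8 lower, or 18.3% called. CD36 (ENSDARG00000032639), a fatty acid receptor, fell by 0.99 ± 0.20 (SE, adjusted p = 0.0052). Against WIK, mm-MO had 10 of the 93 higher and 4 lower (9 and 6 without mm-MO replicate 3). Between her3-MO and mm-MO, 1 was higher and 4 lower in her3-MO (1 and 2 without mm-MO replicate 3). For the lipid list, the numbers higher and lower were 3 and 5 without WIK replicate 1, 16 and 11 without WIK replicate 3, 2 and 4 without her3-MO replicate 2, 3 and 6 without her3-MO replicate 3, 7 and 8 without both libraries that stood apart and 18 and 4 with plain totals. In the list of endothelium and heart 6 of 71 were higher and 9 lower, in that of skin 8 of 92 higher and 4 lower, and in that of the hatching gland 1 of 26 higher and 4 lower. The shares called were 21.1%, 13% and 19.2% in that order. For endothelium and heart, the numbers higher and lower were 2 and 4 without WIK replicate 1, 1 and 4 without her3-MO replicate 2, 2 and 3 without her3-MO replicate 3, 3 and 8 without both libraries that stood apart and 9 and 2 with plain totals. For the skin list, the numbers higher and lower were 2 and 0 without WIK replicate 1, 13 and 3 without WIK replicate 3, 18 and 1 without her3-MO replicate 1, 1 and 0 without her3-MO replicate 2, 1 and 3 without her3-MO replicate 3, 20 and 1 without both libraries that stood apart and 22 and 0 with plain totals. For the hatching gland list, the numbers higher and lower were 0 and 0 without WIK replicate 1, 1 and 0 without her3-MO replicate 1, 0 and 0 without her3-MO replicate 2, 1 and 0 without both libraries that stood apart and 4 and 2 with plain totals.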
